A study of Rattus norvegicus with 458 samples.

Results

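The members are the miRNAs cut from a pair of hairpins that lie in the imprinted Igf2 and H19 genes: miR-483-5p and miR-483-3p from the Mir483 hairpin, and miR-675-5p and miR-675-3p from the Mir675 hairpin. They are 4 names of the 7534 in the miRNA count table, and they were chosen by name after their tissue levels in these data were known, the biceps femoris against soleus, heart and the other tissues being the contrasts that selected them. Tissue levels are therefore given as a description with no test, and tests are kept for measures that the choice did not use, which are sex, the share of each arm, the makeup of sequence variants (isomiRs) and differences between rats.

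Small RNA was sequenced from naïve Sprague Dawley rats of 12 to 13 weeks, 5 male (rats 2 to 6) and 5 female (rats 7 to 11). The libraries cover 23 tissues, of which 19 were taken from all 10 rats and testis, ovary and uterus from the 5 rats of the sex that has them. Dorsal root ganglia were pooled over 5 animals of each sex, and their 10 libraries are technical repeats of these 2 pools. Libraries were made from whole pieces of tissue, so fewer cells of a type and less RNA per cell cannot be told apart. The biceps femoris and soleus are skeletal muscles of the hind limb, the first mostly of fast and the second mostly of slow fibres.

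Igf2 encodes insulin-like growth factor II, a growth factor of fetal life that is read from the paternal chromosome, and H19 gives a long noncoding RNA that is read from the maternal one. Mir483 sits inside Igf2, and Mir675 is cut from the H19 RNA itself, so that the miRNAs report on transcription of the host genes and on later processing together. Skeletal muscle is known as a tissue in which H19 RNA persists in the adult.

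In the RefSeq annotation of the rat genome GRCr8, Igf2 spans chr1:207243873-207261263 and holds Mir483 at chr1:207247859-207247931, while H19 spans chr1:207160175-207162851 and holds Mir675 at chr1:207161752-207161835. The mature sequences all lie on the minus strand, and 86023 bases separate the hairpins. These are the mature sequences in RefSeq, 5′ to 3′, with the seed (bases 2 to 8, which pairs with targets) in capitals, shown because the isomiR results below turn on where the seed begins.
miR-483-5p: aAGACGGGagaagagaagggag
miR-483-3p: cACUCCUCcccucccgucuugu
miR-675-5p: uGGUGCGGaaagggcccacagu
miR-675-3p: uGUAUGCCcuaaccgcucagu
The 4 seeds differ from each other, and none of them occurs in another of the 724 mature rat miRNAs in that table.

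Library totals ranged from 376401 to 17725805 counts, with a median of 4816409, and those of the biceps femoris from 2993535 to 8452854, so that 1 count in a biceps femoris library was worth less than 1 CPM (counts scaled to the same library total). Counting error therefore matters for miR-675-5p, which had 54 counts in the biceps femoris as a whole. The muscle labels were checked against muscle miRNAs. The slow-fibre miRNA miR-208b-3p was at 3014 ± 422 CPM (SD, n = 10) in the soleus and 29.8 ± 49.7 CPM in the biceps femoris, and miR-208a-3p, a marker of heart muscle, reached 463 ± 49.7 CPM in heart libraries against 0.768 ± 2.05 CPM in those of the biceps femoris. The profiles of 10 libraries were closer to those of another tissue than to their own by over 0.05 in median correlation. They were 4 of duodenum, 3 of hippocampus and 1 each of adrenal, ovary and uterus, and no muscle library was among them. In 7 of the 75 libraries whose isomiRs were read, 45.8 to 51.3% of the reads of a typical miRNA began 1 base early, among them the biceps femoris of rat 10 and the soleus of rat 8.

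All 4 members had their highest mean level in the biceps femoris. miR-483-3p was counted there at 39.5 ± 27.1 CPM (SD, n = 10 rats), miR-675-3p at 21.8 ± 6.48 CPM, miR-483-5p at 10.4 ± 6.78 CPM and miR-675-5p at 1.05 ± 0.476 CPM. Ordered by mean CPM, they were numbers 175, 233, 311 and 644 of the 2811 names counted in the biceps femoris. The biceps femoris gave 68.5% of all counts of miR-675-3p in the series, 50.7% of those of miR-483-3p, 47.4% of those of miR-675-5p and 45.9% of those of miR-483-5p.

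**Figure D1:**
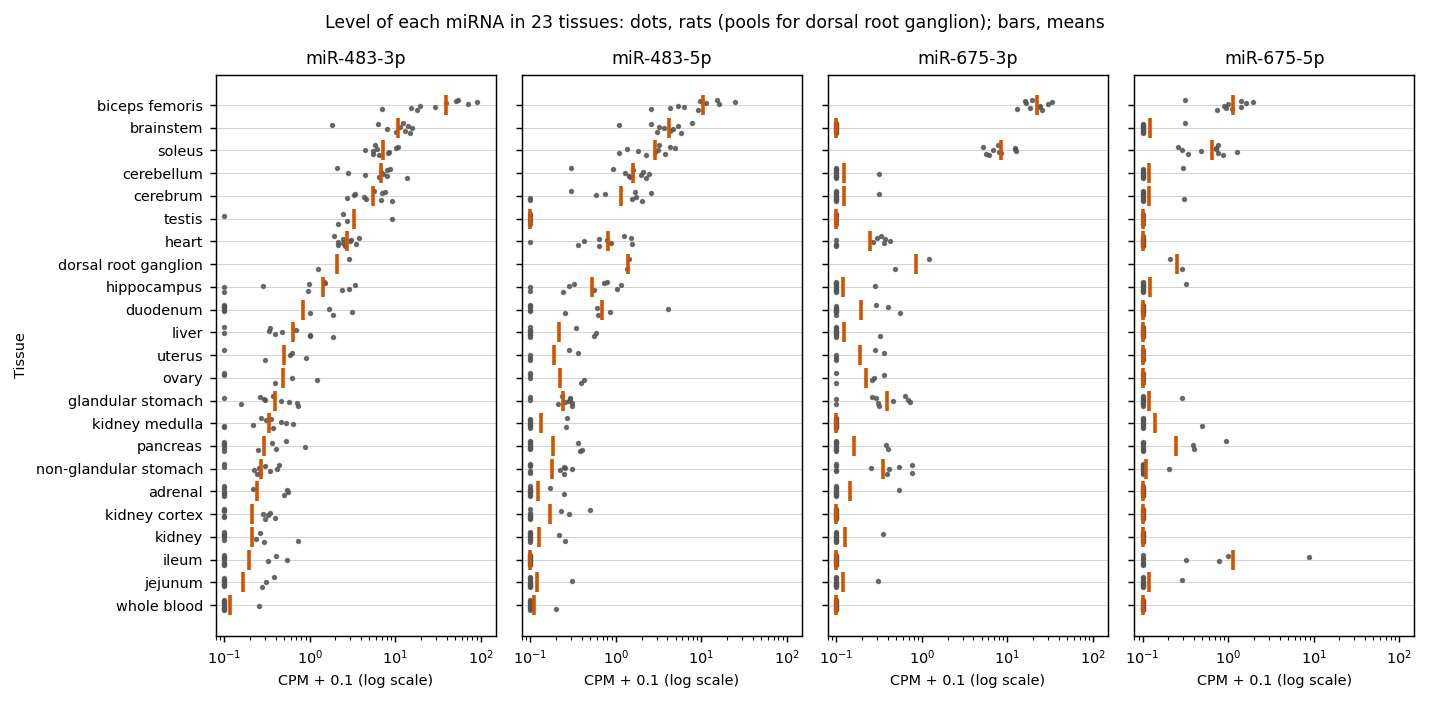
Level of each miRNA in 23 tissues, as CPM + 0.1 on a logarithmic axis, tissues ordered by mean miR-483-3p. Dots are rats (2 pools for the dorsal root ganglion) and bars are means. miR-483-3p falls off gradually from the biceps femoris at 39.5 CPM through brainstem at 10.7 CPM and soleus at 7.04 CPM (an order that turns under TMM and DESeq2 scaling), while miR-675-3p drops from 8.40 CPM in the soleus to 0.747 CPM in the next tissue.

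The arms of miR-675 marked out the pair of skeletal muscles. After the biceps femoris, miR-675-3p was highest in the soleus at 8.40 ± 2.84 CPM (n = 10), and the next tissue, the dorsal root ganglion, was at 0.747 CPM in the mean of 2 pools. Its ranges in the biceps femoris (12.9 to 33.2 CPM) and soleus (5.05 to 12.4 CPM) did not overlap each other, and that of the soleus lay above every other tissue. The biceps femoris held 67.8% and the soleus 26.1% of the sum of its 23 tissue means. In the glandular stomach (0.290 ± 0.232 CPM) and non-glandular stomach (0.254 ± 0.269 CPM) no library held more than 4 counts. No count of miR-675-3p was seen in brainstem, kidney cortex, kidney medulla, ileum, testis or whole blood. In the brainstem that is 0 of 46356569 counts, which allows up to 0.0647 CPM (3 counts), so the summed biceps femoris libraries were at least 333-fold higher. Such limits cover counting error only.

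miR-675-5p was counted in every library of the biceps femoris and soleus, at 0.552 ± 0.316 CPM in the soleus. No count was seen in the heart, adrenal, kidney cortex, duodenum, whole kidney, liver, ovary, testis, uterus or whole blood. The heart had 0 of 55950589 counts, which allows up to 0.0536 CPM, and the summed biceps femoris libraries were at least 20.3-fold higher. Of the other tissues only the ileum reached a mean near that of muscle, at 1.05 ± 2.69 CPM, and its 16 counts came from 4 of 10 libraries, 9 of them from rat 9. The sequences behind these 16 counts, 2 in all, could not be placed on the Mir675 hairpin with up to 1 mismatch or with mismatches in the last 3 bases alone, whereas 53 of the 54 counts in the biceps femoris and 27 of 28 in the soleus could be placed. With the counts that match the hairpin alone, the ileum held none.

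The arms of miR-483 were also found outside muscle, above all in the nervous system. For miR-483-3p the order after the biceps femoris was brainstem (10.7 ± 4.34 CPM), soleus (7.04 ± 2.14), cerebellum (6.73 ± 3.34), cerebrum (5.37 ± 2.16), testis (3.25 ± 3.48, n = 5) and heart (2.61 ± 0.603). The places of brainstem and soleus turned with the scaling, at 6.02 and 7.13 with TMM and 7.31 and 7.94 with DESeq2 size factors. Each of these tissues overlapped the next in range, and the brainstem also overlapped the biceps femoris, whose lowest library was at 6.97 CPM. For miR-483-5p the order was brainstem 4.05 ± 1.89 CPM, soleus 2.77 ± 1.25, cerebellum 1.48 ± 0.656, dorsal root ganglion 1.29 (2 pools), cerebrum 1.04 ± 0.884 and heart 0.710 ± 0.486, and the testis had no count. Here too the brainstem fell below the soleus with TMM (2.26 and 2.89) and DESeq2 size factors (2.75 and 3.12). All tissues gave some count of miR-483-3p, with no library at 0 in biceps femoris, soleus, heart, brainstem, cerebellum, cerebrum and dorsal root ganglion. The testis value rests on 9 counts in 5 shallow libraries, 6 of them from rat 4.

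The hippocampus and duodenum include libraries whose profiles were closer to another tissue, and their miR-483-3p values moved when these were left out. In the hippocampus the mean was 1.31 ± 1.18 CPM over 10 libraries and 1.85 ± 0.973 CPM over the 7 others. In the duodenum it was 0.734 ± 1.08 CPM over 10 libraries and 0.153 ± 0.376 CPM over the 6 others. Of the 48 duodenum counts, 10, 28 and 4 came from the libraries of rats 2, 4 and 7, whose profiles were closest to cerebrum or hippocampus. The liver, where Igf2 is strongly active before birth, held miR-483-3p at 0.535 ± 0.546 CPM and miR-675-3p in a single library.

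Biceps femoris and soleus came from the same rats, so their levels could be set side by side by animal. The libraries of miR-483-3p ran from 6.97 through a median of 34.6 to 91.6 CPM in the biceps femoris, and from 4.36 through 6.16 to 10.6 CPM in the soleus. The biceps femoris was higher in 10 of 10 rats, least in rat 3 (6.97 against 5.34 CPM) and most in rat 7 (70.5 against 4.36 CPM, or 16.2-fold), and the groups overlapped only through rat 3, whose biceps femoris lay below 4 of the soleus libraries. For miR-675-3p the biceps femoris was higher in 10 of 10 rats with less spread, by 1.32-fold to 4.51-fold. miR-483-5p was higher in the biceps femoris of 9 of 10 rats, rat 3 being the exception at 2.46 against 3.64 CPM. miR-675-5p was higher in 8 of 10 rats, on 54 counts in the biceps femoris and 28 in the soleus. In the fit across all names (edgeR), the log2 fold change between the muscles was 2.59 for miR-483-3p, 1.99 for miR-483-5p and 1.44 for miR-675-3p. The arm miR-675-5p was too low to pass the filter on low counts. This contrast was among those that selected the members, so its fold changes are given as a description, without an SE.

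**Figure D2:**
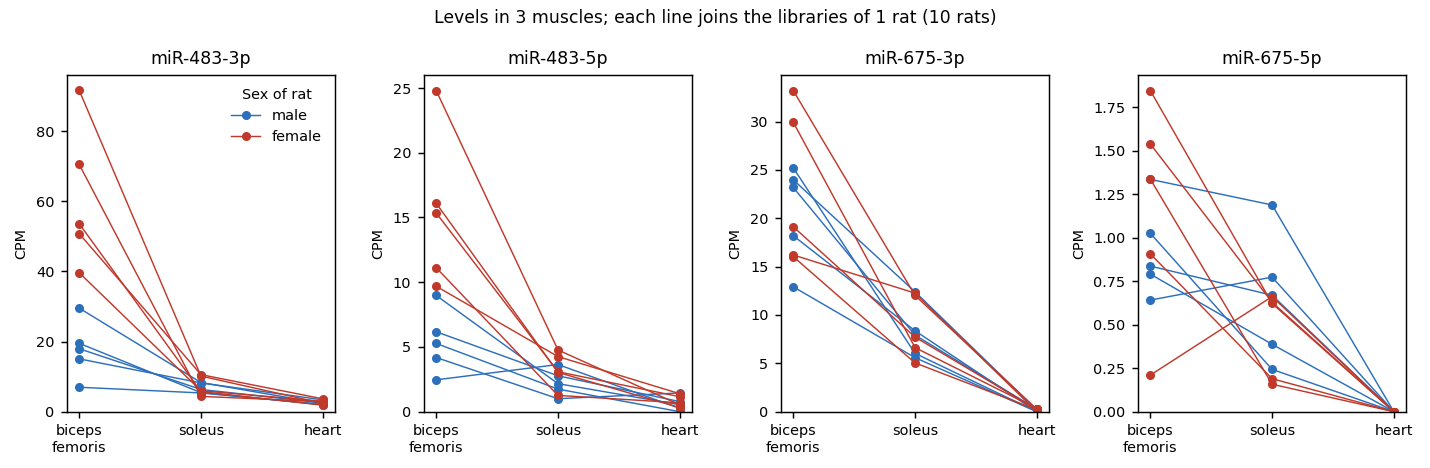
CPM of the 4 miRNAs in biceps femoris, soleus and heart; each line joins the libraries of 1 rat, blue for the 5 males and red for the 5 females. In the biceps femoris the 5 females lie above the 5 males for both arms of miR-483 (39.6 to 91.6 against 6.97 to 29.5 CPM for miR-483-3p) and mix with them for both arms of miR-675.

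The heart separated the hairpins further. miR-483-3p was present in every heart library at 1.85 to 3.67 CPM, all below the lowest biceps femoris library. Its fitted log2 fold change of the biceps femoris against heart was 3.54, with 3.45 for miR-483-5p. miR-675-3p had 9 counts in the heart over 6 of 10 libraries, none with more than 2, and a fitted log2 fold change of 6.59. Against the mean of the fitted log2 levels of the other 22 tissues, the biceps femoris was higher by 6.14 for miR-483-3p. For miR-483-5p the log2 difference was 5.82, and for miR-675-3p 8.07. Tissues with few or no counts pull that mean down, so these are not ratios to the mean CPM of the other tissues. miR-675-3p had no count in 6 of them.

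In the biceps femoris the levels of both miR-483 arms separated the sexes without overlap. Males had miR-483-3p at 17.9, 6.97, 15.1, 29.5 and 19.5 CPM (rats 2 to 6). Females had it at 70.5, 39.6, 91.6, 50.8 and 53.6 CPM (rats 7 to 11). Every female was above every male, with means of 61.2 ± 20.3 and 17.8 ± 8.14 CPM (n = 5 each), a ratio of 3.44.

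miR-483-5p split the same way. Its male libraries were at 8.97, 2.46, 4.18, 6.17 and 5.27 CPM. Its female libraries were at 16.1, 11.1, 24.8, 9.69 and 15.3 CPM, all above the males, with a ratio of means of 2.85. Both arms come from the same hairpin in the same libraries, so they are not independent measurements.

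The tests gave different answers on this difference. The edgeR fit over 19 tissues gave miR-483-3p a log2 fold change of females over males of 1.91 (SE 0.61) with p = 0.00227 and an adjusted p of 0.37 over 1122 names, so it was not called, and miR-483-5p 1.69 (SE 0.71) with an adjusted p of 0.847. In that fit 0.178% of names were called between the sexes in the biceps femoris. DESeq2 called miR-483-3p, with a log2 fold change of 1.93 (SE 0.45) and an adjusted p of 0.00136, and did not call miR-483-5p (adjusted p of 0.0704), against 1.52% of names called by that tool. The exact two-sided permutation test over the 10 rats gave p = 0.00794 for each arm, the smallest that 5 against 5 can give, and 0.0635 after Benjamini-Hochberg adjustment over the 16 member and tissue pairs with a mean of at least 1 CPM. The ratio for miR-483-3p stayed between 2.99 and 4.12 when any single rat was left out, and no rat's removal made the sexes overlap.

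For the miR-675 arms the sexes overlapped over all 10 rats. miR-675-3p was at 25.2, 12.9, 18.2, 23.2 and 24.0 CPM in the biceps femoris of males. In females it was at 29.9, 16.2, 33.2, 16.0 and 19.1 CPM, so the sexes overlapped. The edgeR log2 fold change was 0.29 (SE 0.71, adjusted p = 1), and the exact permutation p was 0.611. miR-675-5p was at 1.17 ± 0.634 CPM in females and 0.925 ± 0.267 CPM in males (exact permutation p = 0.444, n = 5 each).

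The sexes overlapped in all 12 comparisons of a member and a tissue outside the biceps femoris that were tested at a mean of at least 1 CPM. The dorsal root ganglion, with 1 pool of each sex, and the testis were not among them. In the soleus, miR-483-3p was at 7.36 ± 2.81 CPM in females and 6.72 ± 1.45 CPM in males (n = 5 each, exact permutation p = 0.619), and in the brainstem at 9.13 ± 5.04 and 12.3 ± 3.26 CPM (exact permutation p = 0.278). The heart gave 2.76 ± 0.682 and 2.46 ± 0.547 CPM (exact permutation p = 0.468). The sex difference of miR-483-3p in the biceps femoris exceeded that in the soleus by 1.73 on the log2 scale (SE 0.85) with p = 0.0447 in edgeR and an adjusted p of 1, so the difference between the muscles was not called. Over all 57 member and tissue pairs that edgeR tested between the sexes, 0 were called and 5 had an unadjusted p under 0.05, against 1.49% of all names and tissues called. DESeq2 called 1 of the 57, miR-483-3p in the biceps femoris.

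Other measures were compared between the sexes in the same biceps femoris libraries. miR-208b-3p, which is encoded in a slow myosin gene, was at 119, 38.7, 124, 0.500 and 0.527 CPM in the males. In the females it was at 4.99, 6.63, 2.26, 0.668 and 1.05 CPM, and it was lower in females by edgeR (log2 fold change -3.84, SE 0.86, adjusted p = 0.00907). In the same order of rats miR-483-3p was at 17.9, 6.97, 15.1, 29.5 and 19.5 CPM in the males. In the females it was at 70.5, 39.6, 91.6, 50.8 and 53.6 CPM. miR-499-5p, also of slow fibres, was not called (adjusted p = 1). Summed smooth muscle markers (miR-143-3p and miR-145-5p) ran from 26250 to 40550 CPM in females and 39170 to 62320 CPM in males. Endothelial markers (miR-126a-3p and miR-126a-5p) ran from 4192 to 5449 and 5448 to 8577 CPM, and none of these 4 names was called between the sexes. The sexes overlapped in every marker sum. Female over male means were 0.689 for smooth muscle, 0.705 for endothelial and 0.702 for mesenchymal markers. They were 0.798 for blood, 0.839 for leukocytes, 0.869 for liver, 1.08 for skeletal muscle, 1.44 for neurons and 7.15 for heart muscle, the last at a mean of 0.904 CPM. RNA integrity numbers were alike (7.2 to 8.1 in females, 7.3 to 8.2 in males). RNA had been extracted a second time for 3 female and 1 male biceps femoris libraries, and without these 4 the sexes still did not overlap for miR-483-3p (70.5 and 91.6 CPM in 2 females, 6.97 to 19.5 CPM in 4 males, exact permutation p = 0.133). In that smaller set miR-675-3p did not overlap either, at 29.9 and 33.2 CPM in the females and at most 25.2 CPM in the males, a ratio of 1.57 in place of 1.11 (exact permutation p = 0.133), while miR-675-5p still overlapped. The part of fibre type and of other cells in the sex difference was not tested.

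Both hairpins gave more counts of the 3p arm in muscle. The paper states that ligase bias, by which some miRNAs can be over- or under-represented, affected its sequencing. A share of counts between arms therefore need not equal their share of RNA. In the biceps femoris, miR-483-5p made up 21.1% of the 2460 counts of its hairpin (exact binomial 95% interval 19.5 to 22.8%), and miR-675-5p 4.81% of the 1122 counts of its own (3.64 to 6.23%). For miR-483 the share was 27.5% in the brainstem (705 counts, 24.3 to 31.0%), 18.3% in the cerebellum (394 counts, 14.6 to 22.4%), 16.6% in the cerebrum (313 counts, 12.7 to 21.2%) and 21.4% in the heart (192 counts, 15.8 to 27.8%). All these intervals pool the counts of a tissue and cover counting error only. They leave out the spread between rats, so they are no test of one tissue against another. In the dorsal root ganglion, left out of the shares because its libraries repeat 2 pools, miR-483-5p had 25 counts and miR-483-3p 37. There the female pool held the arms at 1.25 and 1.15 CPM and the male pool at 1.33 and 2.77 CPM.

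Only the soleus could be tested against the biceps femoris, since a library in each of the other tissues held fewer than 20 counts of the hairpin. By rat, the 5p share of miR-483 was 21.98 ± 4.90% in the biceps femoris and 28.0 ± 9.58% in the soleus, lower in the biceps femoris of 7 of 10 rats. The mean difference of -6.05 percentage points (SD 10.8) had an exact sign-flip permutation p of 0.109 and an adjusted p of 0.219 over the 2 hairpins. For miR-675 the shares were 4.85 ± 2.49% and 6.25 ± 3.61%, a difference of -1.40 points (SD 4.93) with an exact sign-flip permutation p of 0.408. Neither difference passed the test, and the spread between rats leaves room for one.

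**Figure D3:**
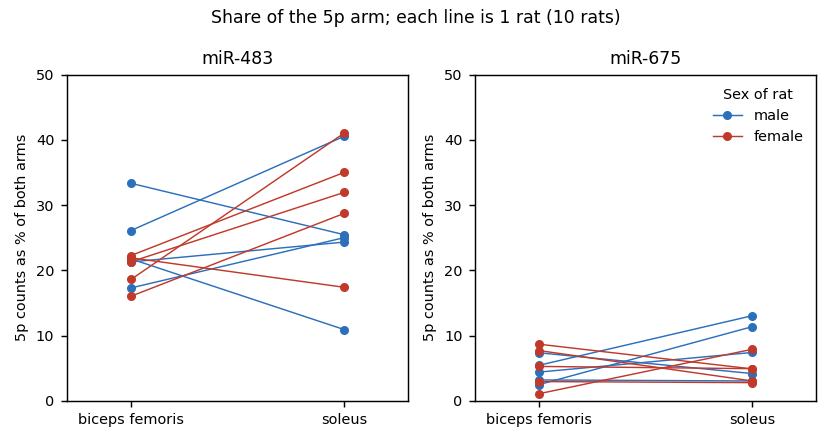
Counts of the 5p arm as a percentage of both arms in biceps femoris and soleus; each line is 1 of 10 rats, blue for males and red for females. The miR-483 lines start between 16.0 and 33.3% in the biceps femoris and spread to between 10.9 and 41.0% in the soleus, and all miR-675 points lie at or below 13.0%.

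The isomiRs showed that the 3p arms begin at a pair of alternative positions. The most counted sequence of each member in the biceps femoris was the RefSeq mature sequence given above. The second most counted form of both 3p arms began 1 base earlier on the hairpin and ended at the same base, which moves the seed by 1 base. These forms are printed, with the seed they would use in capitals, to set them against the mature sequences.
miR-483-3p, 1 base earlier: uCACUCCUccccucccgucuugu
miR-675-3p, 1 base earlier: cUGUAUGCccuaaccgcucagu
Neither of these seeds is found among the 724 mature rat miRNAs in RefSeq. Leaving out rat 10, whose reads began early across miRNAs, the earlier form of miR-675-3p printed here took 29.3% of 1020 counts in the biceps femoris and the mature sequence 60.0%. The earlier form of miR-483-3p took 10.7% of 1789 counts and the mature sequence 65.6%.

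Counting every sequence with that start, 33.1% of miR-675-3p and 16.99% of miR-483-3p in the 9 other biceps femoris libraries began 1 base early. Between these rats the share ran from 20.9 to 42.9% for miR-675-3p and from 8.82 to 23.1% for miR-483-3p. In the same libraries the median share over other miRNAs was at most 0.0804%, and their pooled share 1.02 to 1.42%. The earlier start of miR-483-3p was also seen in the brainstem (16.4% of 458 counts), cerebrum (15.2% of 236) and heart (16.8% of 143), each without its shifted library, and in the cerebellum (18.6% of 322). The 5p arms differed from this: 0 of 490 counts of miR-483-5p and 0 of 50 of miR-675-5p began 1 base early in these 9 biceps femoris libraries, which allows a share of up to 0.612% and 6% (3 counts).

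**Figure D4:**
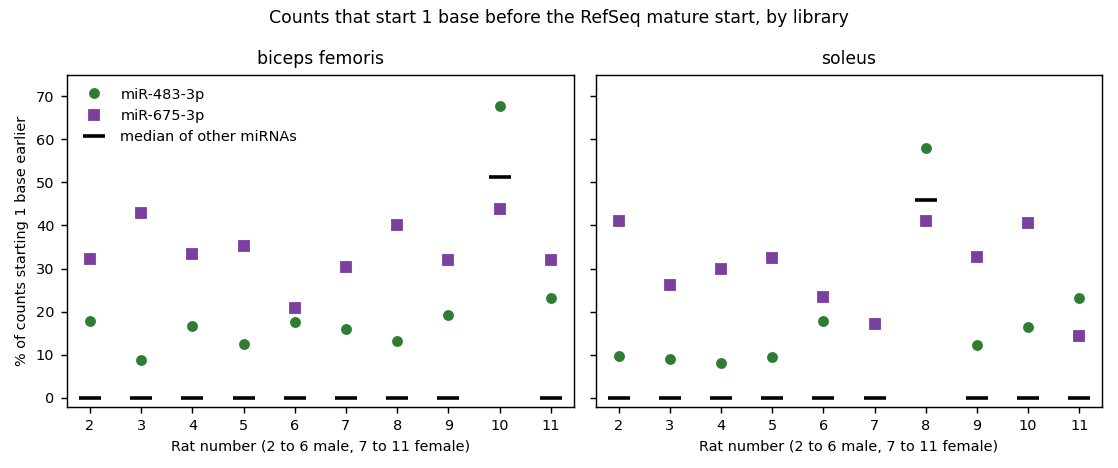
Percentage of counts that start 1 base before the RefSeq mature start in each biceps femoris and soleus library, for miR-483-3p (circles), miR-675-3p (squares) and the median of other miRNAs (bars). Apart from biceps femoris of rat 10 and soleus of rat 8, where the median of other miRNAs reaches 51.3 and 45.8%, the bars lie near 0 and both 3p arms lie well above them.

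The early reads of rat 10 and rat 8 trace to runs of a single lane. All 7 runs of that lane among the tissues read had 42.3 to 60.6% of reads beginning 1 base early, and the other run of the same 7 libraries had 0.437 to 1.71%. The miRNA counts of these libraries were kept, since reads are assigned by arm.

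The makeup of the 3p arms was compared between the muscles by rat, over rats with at least 20 counts in both. The share of counts with another start than the mature one was 23.6 ± 20.2% in the biceps femoris and 14.2 ± 4.89% in the soleus for miR-483-3p (n = 9, higher in 7 rats), with an exact sign-flip permutation p of 0.0234 and an adjusted p of 0.0938 over 4 tests. Without rats 8 and 10 the shares were 16.99 ± 4.39% and 13.9 ± 5.15% (n = 8, exact p = 0.0469, adjusted p = 0.188). For miR-675-3p they were 38.7 ± 14.7% and 32.3 ± 14.2% (n = 10, exact p = 0.262), and 33.7 ± 6.23% and 27.3 ± 8.72% without rats 8 and 10 (n = 8, exact p = 0.133). No difference passed after adjustment in these sets, nor did the share of the most counted sequence (adjusted p = 0.394 for both 3p arms). With the same-lane runs added back, the start difference of miR-483-3p passed (9.65 points, exact permutation, adjusted p = 0.0469). That set keeps rat 10, whose reads began early across miRNAs. In the main runs the difference was 9.40 points with rat 10 and 3.09 points without rats 8 and 10.

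Bases at the 3′ end that differ from the hairpin, within the last 3 bases alone, were seen in all 4 members. Added bases and changed bases were counted alike. In the biceps femoris without rat 10, the mature sequence took 57.3% of the 490 counts of miR-483-5p, and 17.1% carried bases at the 3′ end that the hairpin does not hold there. For miR-675-5p, 46.0% of 50 counts carried such bases, most of them in a single form 2 bases longer than the mature sequence, which took 16 counts. The share was 11.5% of 1789 counts in miR-483-3p and 5.29% of 1020 counts in miR-675-3p, and the arms were not tested against each other. An entry for reads on the Mir675 precursor outside the mature arms (mir-675-pre, shared with the predicted entry chr1_5978-pre) held 3 counts in the biceps femoris, 3 in the soleus and 1 in the dorsal root ganglion.

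Variation between rats was compared between the hairpins and between the muscles. In the biceps femoris the summed arms of miR-483 separated the sexes, and 5 rats of a sex are too few for a correlation, so its relation to miR-675 could not be tested there. In the soleus no relation of the summed arms was detected (Pearson r = -0.185, permutation p = 0.601; Spearman rho = -0.309, permutation p = 0.389; n = 10), and r was -0.346 without the 2 rats farthest from the median. No relation between the muscles was detected for miR-675-3p (r = 0.342, permutation p = 0.327, adjusted p = 0.655; rho = 0.333, permutation p = 0.348; n = 10), and r fell to -0.108 without the 2 farthest rats. For miR-675-5p r was -0.0233 (permutation p = 0.951) and rho -0.285 (permutation p = 0.425), and r was 0.0554 without those rats.

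Across the 23 tissue means, the names most like each member were found by the Pearson correlation of log2(CPM + 1) among 779 names that reached 10 CPM in some tissue. This is a description over tissues that share libraries, and zeros in many tissues raise it. The arms of miR-483 were most like each other (r = 0.934). For miR-483-5p the next were miR-675-3p (0.769) and the predicted miRNA chr13_35992-5p (0.760). For miR-483-3p they were chr13_35992-5p (0.722) and miR-486-3p (0.720), a miRNA of muscle and red cells. For miR-675-3p they were the predicted miRNA chr1_4392-3p_seed(miR-7113-3p) (0.947), chr13_35992-5p (0.908) and miR-206-3p (0.860), a miRNA of skeletal muscle that was higher in the soleus at 1684 CPM than in the biceps femoris at 327 CPM. miR-675-5p was most like chr1_4392-3p_seed(miR-7113-3p) (0.742), chr13_35992-5p (0.735) and miR-675-3p (0.711). Its tissue means include the ileum at 1.05 CPM, whose 16 counts could not be placed on the Mir675 hairpin. Both predicted miRNAs averaged 11.1 CPM in the biceps femoris, with 1.34 CPM for chr13_35992-5p and 3.41 CPM for chr1_4392-3p_seed(miR-7113-3p) in the soleus.

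miRNAs of other imprinted genes were read beside the members. The list holds 56 names from the Mest, Gnas and Dlk1-Dio3 loci. Of these, 0 were called higher in the biceps femoris than in the soleus by edgeR, where 1.22% of all 1641 names were, and 1 was called lower, where 2.74% were. The median log2 fold change was 0.19 over the list and 0.00 over all names. The name called lower was miR-381-3p (log2 fold change -1.39, SE 0.43, adjusted p = 0.0373), at 597 ± 140 CPM in the biceps femoris and 1627 ± 777 CPM in the soleus. The next lowest, miR-487b-3p (-1.06, SE 0.45) and miR-296-3p (-0.50, SE 0.77), and the highest 3, miR-494-3p (0.95, SE 0.47), miR-543-3p (0.86, SE 0.50) and miR-154-5p (0.82, SE 0.43), were not called.

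Against the mean log2 level of the other 22 tissues, 45 of the 56 were higher in the biceps femoris, beside 18.3% of all names. Those lower numbered 0, beside 13.2%. The median log2 fold change was 1.77 over the list and -0.32 over all names. The highest were miR-493-5p (4.33, SE 0.27), miR-299a-5p (3.93, SE 0.31) and miR-337-5p (3.44, SE 0.25), all of the Dlk1-Dio3 locus. The muscles had similar means, with 55.4 ± 14.0 CPM in the biceps femoris and 62.5 ± 25.1 CPM in the soleus for miR-337-5p. The lowest 3 were miR-298-5p (-0.74, SE 0.32, not called), and miR-298-3p and miR-770-3p, both under 0.2 CPM in the biceps femoris.

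Of 17 muscle miRNAs, 0 were called higher in the biceps femoris than in the soleus, beside 1.22% of all names. The 3 called lower, beside 2.74% of all names, were miR-208b-3p (log2 fold change -6.78, SE 0.76), miR-499-5p (-5.51, SE 0.46) and miR-206-3p (-2.34, SE 0.57). The first pair of these are slow-fibre miRNAs. The highest of the list, miR-31a-5p (1.80, SE 0.58), miR-378a-3p (0.77, SE 0.32) and miR-486-5p (0.58, SE 0.73), were not called. Against the other 22 tissues 8 of the 17 were higher, beside 18.3% of all names, led by miR-1-3p (9.82, SE 0.38), miR-133a-3p (9.02, SE 0.37) and miR-133a-5p (8.63, SE 0.34). The 3 that were lower, beside 13.2% of all names, were miR-181a-5p, miR-29b-3p and miR-31a-5p.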

How the data were processed

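The authors trimmed adapters with cutadapt 1.4.1, discarded short reads, aligned to miRBase 20 hairpins of several species with miRDeep2 and deposited raw counts per miRNA name and per isomiR sequence for 458 runs. Here runs were summed by library, leaving out 14 that name a lane already used (444 kept). CPM is the count over the library total of all 7534 names. edgeR 4.0.16 (R 4.3.3; quasi-likelihood, upper quartile scaling, filterByExpr, adjusted p under 0.05) was fitted to 207 samples for tissues and to 19 tissues for sex, and DESeq2 1.42.0 was the other tool. The SE printed with an edgeR fold change was worked back from its F statistic, as the size of the log2 fold change over the square root of F. The SE of DESeq2 is the one that tool reports, so the SEs of the tools are not the same measure. Exact and permutation tests (100000 resamples for correlations) were two-sided, in scipy 1.17.1. Of the isomiR columns, 158 of 8 tissues were used and 300 were not. The edgeR fit and the placing of isomiRs on the hairpins were tested on simulated data.

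Members and lists were chosen with earlier results of these data known. Named are the 4 members, other entries holding their names, for each the 3 names most correlated over tissues, and the highest and lowest 3 of each list. The exact sex tests and the removal of shifted or re-extracted libraries were added after the data were seen. Tissues of a rat are paired because they come from the same animal. The median correlation of deviations was 0.0185 between tissues of a rat and -0.0078 between rats, and ran from -0.0832 to 0.309 between biceps femoris and soleus of a rat. Each library of a tissue is from another rat, so the p-values of the exact and permutation tests measure the spread between rats. The main edgeR and DESeq2 fits estimate the spread over all their tissues together, with no block for the rat and with the out-of-place libraries included. Their p-values therefore do not measure the spread between rats within the compared tissues alone. The correlation of miR-483 with miR-675 planned for the biceps femoris was not made, since the sexes did not overlap. The authors mapped reads to the RN5 rat genome to predict further miRNAs. No RN5 position is used here, and GRCr8 positions and sequences are from RefSeq, where all 4 members matched.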

Additional observations from a re-analysis of the deposited data

Results flagged for a closer look

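The level of miR-483-3p in the testis of rat 4, 9.18 CPM on 6 counts, stood apart from the other 4 testis libraries, which had 0 or 1 count each. The level of miR-675-5p in the ileum of rat 9, 8.64 CPM on 9 counts, stood apart from the other 9 ileum libraries, and none of these counts could be placed on the Mir675 hairpin. These were 2 of 17 groups of a member and a tissue with a mean of at least 1 CPM. The limit used is meant to mark about 1 group in 20 by chance, a rate that need not hold for counts this low. The testis library passed its limit narrowly, at 0.7106 against 0.71. The sex difference of miR-483-3p was larger in the biceps femoris than in the soleus by 1.73 on the log2 scale (edgeR p = 0.0447, adjusted p = 1).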

How the results depend on the processing

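Over 52 results and 394 alternative values, 358 kept their direction and their side of the threshold or moved by less than the spread between rats. TMM scaling took miR-483-3p in the brainstem to 6.02 CPM, and the log2 fold change of miR-675-3p against heart to 7.13 under TMM and DESeq2 alike. Names called higher in the biceps femoris than in the soleus numbered 34 with TMM and 37 without the 10 out-of-place libraries, in place of 20, and 79 were lower without these libraries, in place of 45. Muscle names called higher there numbered 2 with TMM, DESeq2 or without those libraries, and 1 with no filter or all runs, while 5 were lower without those libraries. Imprinted-locus names called lower numbered 0 with TMM, no filter or all runs, and 2 without those libraries. Against the other 22 tissues 490 names were higher with no filter, in place of 301, and 1 imprinted-locus name was lower without those libraries.

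Between the sexes in the biceps femoris DESeq2 called 17 names, no filter 18 and the fit without re-extracted libraries 0, in place of 2, and leaving out single rats gave 0 to 2. DESeq2 called miR-483-3p there (log2 fold change 1.93), which is its 1 member call. Leaving out rats gave 0 to 1 member call, the 1 being miR-483-3p in the duodenum without rat 7. The duodenum libraries of males 2 and 4 and female 7 had profiles closest to cerebrum or hippocampus. Without rat 7 such libraries remained in the males alone, so this call is no measure of a sex difference in the duodenum. In the soleus the log2 fold changes between the sexes without a rat ran from -0.016 to 0.352 for miR-483-3p and from -0.0048 to 0.361 for miR-675-3p. With all runs, the difference in other starts of miR-483-3p was 9.65 points and passed the threshold (exact permutation, adjusted p = 0.0469). That set keeps the shifted library of rat 10. In the main runs without rats 8 and 10 the difference was 3.09 points and did not pass (exact permutation, adjusted p = 0.188). The correlations of miR-675-5p and miR-675-3p between muscles turned to 0.0554 and -0.108 without the 2 farthest rats.

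With a replicate block for the rat the log2 fold changes between the muscles were 2.67 for miR-483-3p, 1.95 for miR-483-5p and 1.43 for miR-675-3p, and the block changed no call of a list by over 1.5 times. Without the pairing, no arm or isomiR difference was called. The cause of these shifts was not tested. Depth limits miR-675-5p most.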
